A study of Mus musculus with 12 samples.

Results

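The locus examined here is a stretch of 430 kb on mouse chromosome 1 (build mm10) that holds the low-affinity Fc receptor genes Fcgr2b and Fcgr3, the Fc receptor-like genes Fcrla and Fcrlb, and the neighbouring genes Atf6 and Olfml2b. Its members were the accessible regions of the deposited table that overlapped the body of one of these 6 genes, or the 10 kb on either side, in the GENCODE vM21 annotation. This gave 27 of 63309 regions, of which 12 were assigned to Atf6, 7 to Fcgr3, 3 to Fcgr2b, 3 to Fcrlb, 1 to Fcrla and 1 to Olfml2b. One Fcrlb region, in an exon of that gene, also lay within 10 kb of Fcrla. The locus was selected on the measured accessibility of the iNKT2 libraries, several of its regions being less accessible in Hivep3-/- than in C57BL/6 cells, so that contrast is given as a description and is not tested.

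Chromatin accessibility was measured by Omni-ATAC-seq, in which a transposase cuts open DNA, in 3 subsets of invariant natural killer T (iNKT) cells sorted from the thymi of untreated mice aged 8 to 9 weeks. The 6 groups were iNKT1 (CD122+, ICOS-), iNKT2 (CD122-, ICOS+, Izumo1r+, CD138-) and iNKT17 (CD122-, ICOS+, Izumo1r-, CD138+) cells from wildtype C57BL/6 mice and from Hivep3-/- mice on the C57BL/6 background, with 2 libraries per group and 12 in all. Hivep3 encodes a zinc finger protein that acts as a transcription factor and as an adapter. By the protocol thymi were pooled within a genotype, and the subsets were transposed together and sorted again on ICOS and CD138. The titles, however, name the replicates Mouse1 and Mouse2, so whether a library stands for 1 animal or for several is not settled. The 3 subsets with the same number and genotype were taken to share a transposition reaction.

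Fc receptors bind the constant part of antibodies. Fcgr2b encodes the inhibitory receptor FcγRIIB, whose tail recruits phosphatases, whereas Fcgr3 encodes FcγRIII, an activating receptor that signals through the common γ chain encoded by Fcer1g. Fcrla and Fcrlb encode intracellular relatives of these receptors known mostly from B cells, Atf6 encodes a membrane-bound transcription factor of the endoplasmic reticulum that is cleaved and released when unfolded proteins accumulate, and Olfml2b encodes a secreted protein with an olfactomedin domain.

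In the build used by the files, Olfml2b (ENSMUSG00000038463.8) lies on the plus strand at chr1:170644532-170682789. The other genes lie on the minus strand, Atf6 (ENSMUSG00000026663.6) at chr1:170704674-170867771, Fcrlb (ENSMUSG00000070524.1) at chr1:170907273-170912941, Fcrla (ENSMUSG00000038421.13) at chr1:170917576-170927583, Fcgr2b (ENSMUSG00000026656.15) at chr1:170958617-170976547 and Fcgr3 (ENSMUSG00000059498.13) at chr1:171051174-171064935. Of the 27 regions, each 500 bp long, 5 lay within 1000 bp of an annotated start site of their gene, 3 overlapped an exon, 10 lay in introns and 9 outside the gene bodies. Olfml2b, Atf6 and Fcgr3 had a region at their start site, and the table held none within 1000 bp of a start of Fcgr2b, Fcrla or Fcrlb.

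The central 300 bases of 3 regions are shown because the differences between subsets and between genotypes described below turn on them. They are the plus strand of the GRCm38.p6 assembly, which is mm10, and none of the 3 overlaps an annotated exon. Capitals mark the letters of 1 of the motifs that were searched, on either strand, and a match is a description of the sequence and not of a bound factor. The first is the Fcgr2b intron (chr1:170972527-170972826), which was accessible in iNKT1 cells, with an NFAT motif (TGGAAA) at bases 27 to 32. The second is the Atf6 intron that was accessible in iNKT17 cells (chr1:170850628-170850927), with none of the motifs in these bases. The third is the region upstream of Fcrla (chr1:170934407-170934706), lower in Hivep3-/- iNKT2 cells, with the core of the CTCF motif (AGGGGGC) in reverse at bases 223 to 229.
Fcgr2b intron: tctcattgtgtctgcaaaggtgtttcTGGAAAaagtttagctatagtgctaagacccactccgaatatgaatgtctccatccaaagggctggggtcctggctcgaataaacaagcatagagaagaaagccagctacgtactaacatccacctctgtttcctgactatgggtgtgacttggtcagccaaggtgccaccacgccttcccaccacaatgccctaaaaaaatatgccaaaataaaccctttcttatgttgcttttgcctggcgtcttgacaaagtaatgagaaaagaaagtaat
Atf6 intron, iNKT17: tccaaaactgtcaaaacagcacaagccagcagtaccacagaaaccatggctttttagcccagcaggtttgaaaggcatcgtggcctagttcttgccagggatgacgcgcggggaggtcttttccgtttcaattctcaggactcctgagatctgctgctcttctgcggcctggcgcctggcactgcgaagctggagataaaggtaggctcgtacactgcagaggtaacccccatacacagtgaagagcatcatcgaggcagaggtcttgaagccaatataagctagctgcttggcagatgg
Fcrla upstream: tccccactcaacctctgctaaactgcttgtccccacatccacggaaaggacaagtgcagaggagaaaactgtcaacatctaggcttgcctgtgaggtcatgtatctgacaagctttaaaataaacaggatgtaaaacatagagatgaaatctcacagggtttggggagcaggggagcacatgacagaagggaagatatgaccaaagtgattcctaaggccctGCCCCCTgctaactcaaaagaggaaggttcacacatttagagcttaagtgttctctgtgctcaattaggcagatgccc

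Values are log2 insertions per kb, normalized by the authors, and a region was taken as accessible in a group when the mean of its 2 libraries on the linear scale was at least 5. Every member was accessible in at least 1 group and 12 were accessible in all 6. In C57BL/6 mice the iNKT1, iNKT2 and iNKT17 subsets had 21, 21 and 22 accessible members. In Hivep3-/- mice they had 18, 13 and 20. Of all 63309 regions, 52077 to 52694 were accessible in each of the 6 groups. Nothing is read from the iNKT2 counts, since those libraries picked the locus. Because a library is made from many cells, fewer cells with a region open and less opening per cell cannot be told apart.

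**Figure D1:**
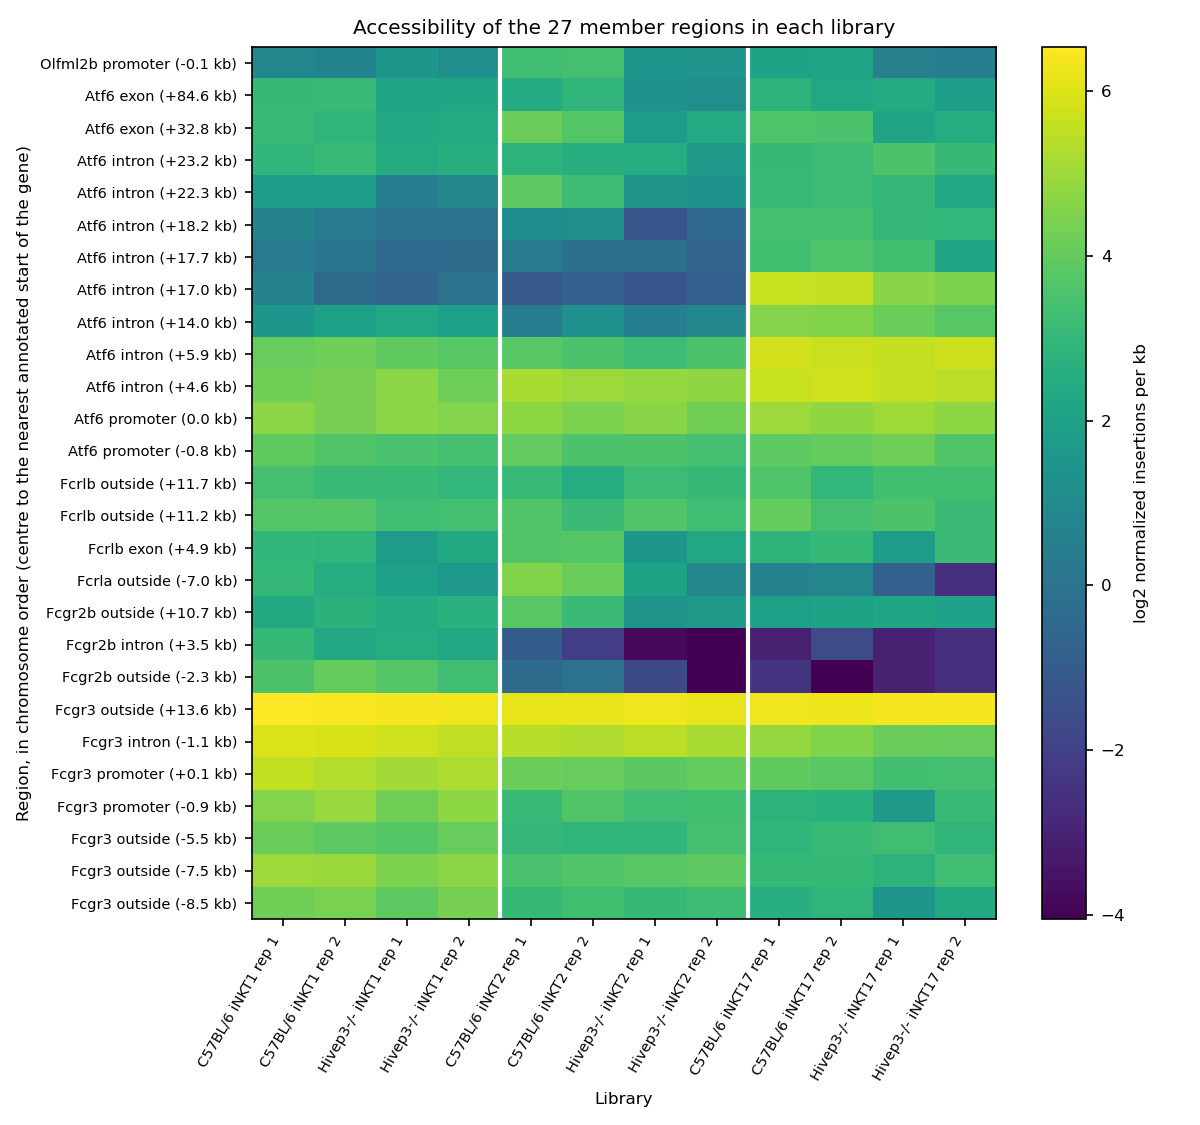
Log2 normalized insertions per kb (colour) at the 27 member regions (rows, in chromosome order, labelled with gene, place and distance in kb of the centre from the nearest annotated start of the gene) in the 12 libraries (columns, with 2 replicates per group). The Fcgr2b intron and upstream rows reach up to 3.06 and 4.03 in the iNKT1 libraries and are at or below -0.10 in every other library, while the Atf6 intron rows at 14.0 to 18.2 kb are brightest in the 4 iNKT17 libraries.

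The subset labels were checked at the promoters of marker genes. All 5 T cell markers (Cd3e, Cd3g, Cd3d, Cd5 and Lck) were accessible in every group, and the summed linear level of 3 iNKT17 markers (Sdc1, Il23r and Ccr6) was 124 to 143 in iNKT17 libraries against 11.7 to 16.2 in the others. The 4 iNKT1 markers summed to 395 to 412 in their own subset against 210 to 267 elsewhere, and the 4 iNKT2 markers to 225 to 260 against 113 to 174. Replicates correlated at r = 0.963 or more over all regions. The depth of the libraries is unknown, since the values are not counts. The number of distinct values up to the median, taken to be smaller in a shallower library, was 73 and 85 in the Hivep3-/- iNKT17 libraries and 91 to 491 in the rest. Of the 21 regions in the body of Hivep3, the targeted gene, 20, 18 and 12 were tested in iNKT1, iNKT2 and iNKT17 cells. None was called between genotypes by limma (1.15%, 1.68% and 0.271% of all regions). At an unadjusted p under 0.05 there were 5, 3 and 5 (17.8%, 25.3% and 15.8% of all regions). As the deleted part is not given in the sources used here, accessibility does not check the genotype labels.

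The members were first compared between iNKT1 and iNKT17 cells, a comparison without the libraries by which the locus was picked. To be called, a region had to differ by 3-fold or more with a p under 0.1 after Benjamini-Hochberg adjustment, in a limma fit of all 63309 regions. In C57BL/6 mice 10 of 26 members tested were called, against 20.5% of all regions tested, and in Hivep3-/- mice 11 of 24, against 19.3%. The direction divided the locus by gene: in C57BL/6 mice 5 regions of Fcgr2b, Fcgr3 and Fcrla were higher in iNKT1 cells (9.72% of all regions) and 5 introns of Atf6 were lower (10.8%). In Hivep3-/- mice 5 regions of Fcgr2b and Fcgr3 were higher (9.48%) and 6 of Atf6 were lower (9.83%). The 2 directions balanced in the median difference over the 27 members, -0.02 in C57BL/6 and -0.03 in Hivep3-/- mice on the log2 scale, against 0.02 over all regions in either genotype.

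Of the 6 genes, Fcgr2b had the largest difference in this comparison. The region 2.33 kb upstream of its start (chr1:170978623-170979122) read 3.56 and 4.03 in the wildtype and 3.70 and 3.28 in the knockout iNKT1 libraries. Its iNKT17 values were -2.41 and -4.05 for the wildtype and -3.06 and -2.58 for the knockout, and 3 of these 4 values were the lowest that their library held. The iNKT1 and iNKT17 libraries did not overlap. The fitted log2 difference in C57BL/6 mice was 7.02 ± 0.81 (SE; limma, adjusted p = 7.33e-06), a size that rests in part on a library at its lowest value.

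The Fcgr2b intron region (chr1:170972427-170972926, 3.45 kb inside the gene and within 1000 bp of the start of the unnamed gene model Gm38204) followed the same order. The iNKT1 libraries read 3.06 and 2.33 (C57BL/6) and 2.50 and 2.34 (Hivep3-/-). The iNKT17 libraries read -3.12 and -1.65 (C57BL/6) and -3.06 and -2.58 (Hivep3-/-), the last 2 at the lowest value of their library. In C57BL/6 mice the difference was 5.08 ± 0.82 (limma, adjusted p = 0.000137). Both Fcgr2b regions were also called higher in iNKT1 cells of Hivep3-/- mice (limma, adjusted p = 2.09e-05 upstream and 0.000113 in the intron), and no fold is given there because both iNKT17 libraries lay at their lowest value. The third Fcgr2b region, downstream of the gene (chr1:170950663-170951162), read 2.39 to 2.76 in the 4 iNKT1 libraries and 1.91 to 2.19 in the 4 iNKT17 libraries and was not called in either genotype.

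In the iNKT2 libraries the upstream region read -0.40 and -0.10 (C57BL/6) and -1.72 and -4.05 (Hivep3-/-), and the intron -0.92 and -2.10 (C57BL/6) and -3.79 and -4.05 (Hivep3-/-). Both were thus below the accessible level in iNKT2 and iNKT17 cells of either genotype. Averaged over its 3 regions, Fcgr2b had a mean log2 level in iNKT1 cells of 3.02 ± 0.03 (SD, n = 2) for the wildtype and 2.83 ± 0.08 for the knockout. Wildtype iNKT2 cells came next at 0.57 ± 0.36, and then both iNKT17 groups, at -1.18 ± 0.18 (Hivep3-/-) and -1.21 ± 0.0062 (C57BL/6), with knockout iNKT2 cells last at -1.74 ± 0.55. Of the neighbours in this order, the 2 iNKT17 groups overlapped and the others did not. The lower end rests in part on values at the lowest of their library. Both knockout iNKT2 libraries at the intron and 1 upstream stood there, as did both knockout iNKT17 libraries at either region. That lowest value was -3.79 and -4.05 in the former and -3.06 and -2.58 in the latter, so the rank of these groups is uncertain.

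Fcgr3 was accessible in all 3 subsets. Its mean log2 level over 7 regions was highest in iNKT1 cells, at 5.12 ± 0.02 (C57BL/6) and 4.89 ± 0.14 (Hivep3-/-), followed by iNKT2 cells at 4.14 ± 0.06 (Hivep3-/-) and 4.09 ± 0.07 (C57BL/6) and iNKT17 cells at 3.77 ± 0.01 (C57BL/6) and 3.47 ± 0.24 (Hivep3-/-; SD, n = 2). The 2 iNKT2 groups overlapped and the other neighbours did not. The sequence of this gene's neighbourhood is repeated, however. Of the 50-base words of each region, 50 being the length to which reads were trimmed, 65.4% to 100% occurred again within the surrounding 1 Mb at 5 of the 7 Fcgr3 regions, among them the 2 within 1000 bp of a start site, and 0 at the other 22 members. A read that holds such words alone matches more than 1 place by its own sequence, and how such reads or their mates were placed is not given in the sources used here, so these 5 regions are uncertain and may not be separate measurements. In 2 pairs of them, chr1:171064559-171065058 with chr1:171072193-171072692 and chr1:171065571-171066070 with chr1:171073180-171073679, the words were shared between both.

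The Fcgr3 intron region (chr1:171060244-171060743), which holds no repeated word, gave the clearest reading of the gene. Its wildtype libraries read 5.91 and 5.87 (iNKT1), 5.41 and 5.26 (iNKT2) and 4.84 and 4.54 (iNKT17). Its knockout libraries read 5.76 and 5.52 (iNKT1), 5.47 and 5.15 (iNKT2) and 4.11 and 4.08 (iNKT17). The region was thus highest in iNKT1 and lowest in iNKT17 cells in both genotypes, with no overlap between those 2 subsets. The difference was 1.20 ± 0.14 in C57BL/6 (limma, adjusted p = 1.03e-05) and 1.55 ± 0.14 in Hivep3-/- mice (adjusted p = 1.19e-06), in both cases under 3-fold and therefore not called. The second region without repeated words, beyond the 3′ end of Fcgr3 (chr1:171044234-171044733), was the most accessible of the 27 members and also the most even, at 6.15 to 6.53 in all 12 libraries.

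At the annotated start of Fcgr3 (chr1:171064559-171065058), in repeated sequence and overlapping the microRNA gene Mir6546, the iNKT1 and iNKT17 values were 5.55 and 5.33 against 3.94 and 3.84 for the wildtype, and 5.07 and 5.21 against 3.35 and 3.38 for the knockout. The difference of 1.56 ± 0.15 in C57BL/6 mice missed the 3-fold threshold (limma, adjusted p = 1.15e-06), and that of 1.78 ± 0.15 in Hivep3-/- mice passed it (limma, adjusted p = 3.85e-07). The iNKT1 libraries were higher than the iNKT17 libraries in both genotypes. The Fcgr3 calls were chr1:171065571-171066070 in both genotypes (differences of 1.97 and 2.11), chr1:171072193-171072692 in C57BL/6 (1.92), and the start site and chr1:171073180-171073679 (2.18) in Hivep3-/- mice. All of these lie in the repeated sequence, and without the 5 regions the calls over the locus numbered 8 of 21 in C57BL/6 and 8 of 19 in Hivep3-/- mice. The call at chr1:171065571-171066070 in Hivep3-/- mice was lost without Hivep3-/- iNKT17 replicate 1, which left a difference of 1.39.

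Fcrla had 1 region of its own, 6.97 kb upstream of its start (chr1:170934307-170934806). Wildtype cells read 2.99 and 2.48 (iNKT1) and 0.66 and 0.82 (iNKT17), a called difference of 1.99 ± 0.54 (limma, adjusted p = 0.00678). Knockout cells read 1.99 and 1.60 (iNKT1) and -0.78 and -2.58 (iNKT17), in either subset below the accessible level. The subsets did not overlap in either genotype. The 3 Fcrlb regions differed little between the subsets, with differences of -0.03 to -0.01 in C57BL/6 and -0.36 to -0.03 in Hivep3-/- mice, and none was called. Over its regions Fcrlb stood at 2.83 to 3.31 on the log2 scale in the 6 groups, the C57BL/6 groups at 3.29 to 3.31 and the Hivep3-/- groups at 2.83 to 3.05.

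Atf6 ran the opposite way to Fcgr2b and Fcgr3. The intron region 17.0 kb inside the gene (chr1:170850528-170851027) read 5.64 and 5.61 (C57BL/6) and 4.65 and 4.43 (Hivep3-/-) in the iNKT17 libraries. The iNKT1 libraries read 0.67 and -0.41 (C57BL/6) and -0.59 and -0.10 (Hivep3-/-), and the iNKT2 libraries -1.06 and -0.78 (C57BL/6) and -1.22 and -0.78 (Hivep3-/-). The 4 iNKT17 libraries were therefore far above the other 8. The difference between iNKT1 and iNKT17 was -5.50 ± 0.41 in C57BL/6 (limma, adjusted p = 1.41e-07) and -4.89 ± 0.41 in Hivep3-/- mice (adjusted p = 4.49e-07), that is, 45.1-fold and 29.6-fold lower in iNKT1 cells.

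4 further Atf6 introns were lower in iNKT1 than in iNKT17 cells in both genotypes. The differences in C57BL/6 and Hivep3-/- mice were -3.26 and -3.18 at chr1:170849859-170850358, -2.87 and -3.06 at chr1:170849344-170849843, -2.79 and -1.87 at chr1:170853523-170854022, and -1.61 and -1.79 at chr1:170861633-170862132. Without Hivep3-/- iNKT17 replicate 1 the region chr1:170849859-170850358 fell below the accessibility filter and was no longer tested in the knockout, with a difference of -2.61. The first 3 of these lie close to the strongest one and were below the accessible level in every iNKT1 and iNKT2 group, whereas the last was accessible in all 6 groups, its libraries at 3.23 to 5.81. A sixth intron, chr1:170845178-170845677, was called in Hivep3-/- mice alone (-2.00 ± 0.31; limma, adjusted p = 0.000105), where its iNKT1 and iNKT17 values were 0.49 and 0.76 against 2.98 and 2.28. In C57BL/6 mice the difference was -1.29, and the difference between the genotypes did not pass the test (interaction -0.71 ± 0.44; limma, adjusted p = 0.52). Without Hivep3-/- iNKT17 replicate 1 this region also fell below the filter and was not tested, with a difference of -1.65.

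The start site of Atf6 (chr1:170867558-170868057) was level by comparison. It read 4.36 to 4.71 in the 4 iNKT1 libraries, 4.24 to 4.71 in the iNKT2 libraries and 4.73 to 5.03 in the iNKT17 libraries, and the differences of -0.35 ± 0.18 and -0.25 ± 0.18 between iNKT1 and iNKT17 were not called. Over all 12 regions, Atf6 stood highest in iNKT17 cells, at 4.14 ± 0.0091 (C57BL/6) and 3.72 ± 0.24 (Hivep3-/-; SD, n = 2). Wildtype iNKT2 and iNKT1 cells followed at 2.59 ± 0.08 and 2.53 ± 0.09, which overlapped, and then knockout iNKT1 and iNKT2 cells at 2.12 ± 0.0032 and 1.78 ± 0.02.

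**Figure D2:**
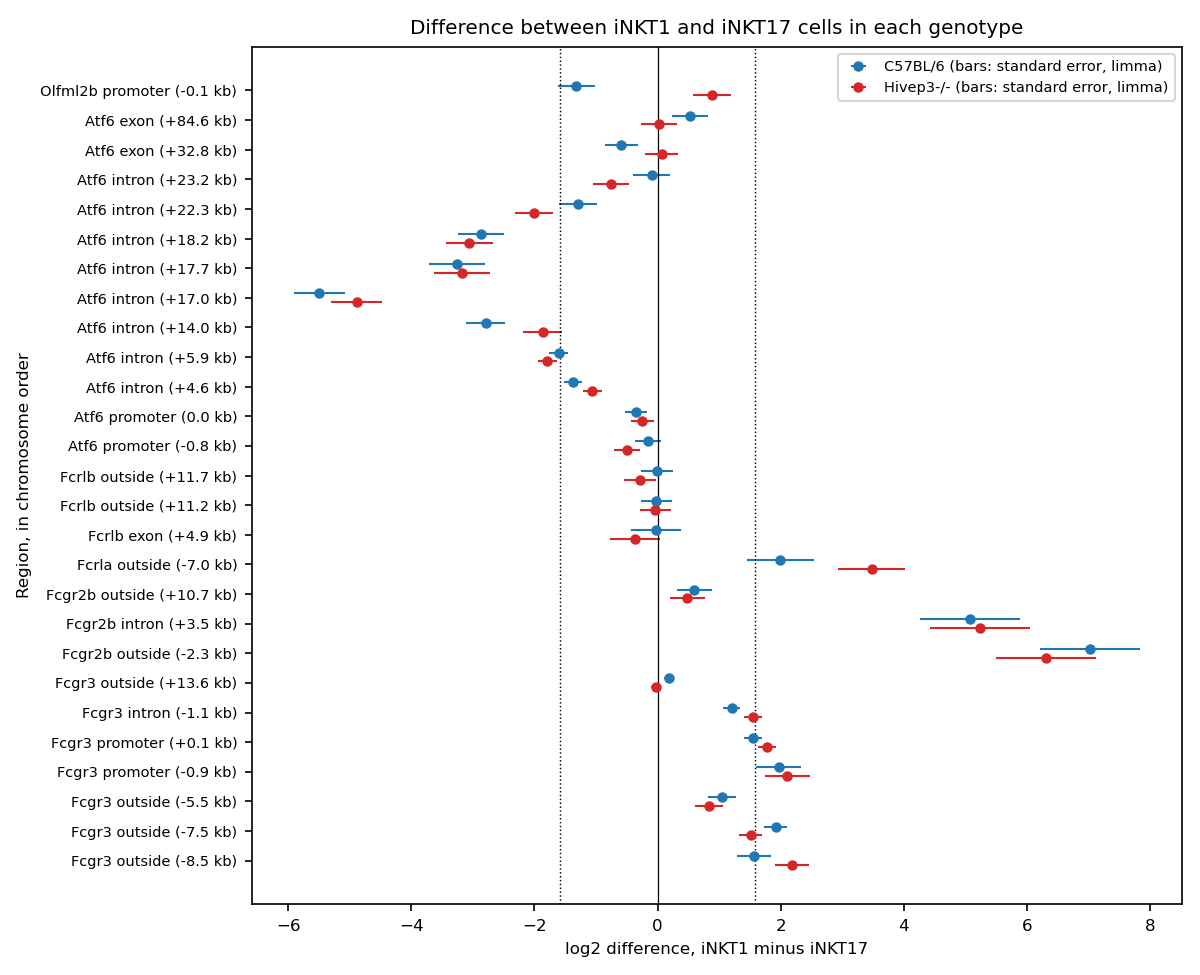
Log2 difference between iNKT1 and iNKT17 cells (x axis) at the 27 member regions (y axis, in chromosome order) in C57BL/6 (blue) and Hivep3-/- (red) mice, with bars for the standard error of the limma fit and dotted lines at 3-fold. The Atf6 introns at 5.89 to 18.2 kb lie left of the line at -1.61 to -5.50 in C57BL/6 mice, and the Fcgr2b intron and upstream regions lie furthest right, at 5.08 and 7.02.

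Olfml2b had 1 region, at its start site (chr1:170644171-170644670). Among the 6 groups it was accessible in C57BL/6 iNKT2 cells alone, at 3.29 and 3.41. The other wildtype libraries read 2.03 and 2.13 (iNKT17) and 0.81 and 0.71 (iNKT1), and the knockout libraries 1.52 and 1.47 (iNKT2), 1.51 and 1.23 (iNKT1) and 0.57 and 0.40 (iNKT17). No 2 of these groups overlapped except the knockout iNKT1 and iNKT2 ones.

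The knockout was then described in iNKT2 cells, the contrast on which the locus was picked. Of 21 members above the accessibility filter 6 passed both thresholds, each of them lower in Hivep3-/- cells, and nothing is read from this count since the rule used it (over all regions 1.68% passed, and 1.2% in the downward direction). They belonged to 5 of the 6 genes and spread over the locus from Olfml2b to Fcgr2b. The members just inside and just outside the 3-fold threshold were the Fcrlb exon at -1.77 and an Atf6 exon region (chr1:170709480-170709979, annotated in part as UTR) at -1.43. Both Hivep3-/- libraries read below both C57BL/6 libraries at 14 of 27 members (25.6% of all regions) and above them at 1 (27.2%). For the same reason nothing is read from these counts.

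The region upstream of Fcrla stood furthest apart, at 4.52 and 4.10 in the wildtype and 2.09 and 0.84 in the knockout libraries, a log2 difference of -2.85. The Atf6 intron chr1:170845178-170845677 went from 3.91 and 3.26 to 1.44 and 1.34 (-2.19). The region downstream of Fcgr2b went from 3.79 and 3.14 to 1.44 and 1.69 (-1.90). These regions lie at 3 different genes.

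The start site of Olfml2b went from 3.29 and 3.41 to 1.52 and 1.47 (-1.85), an Atf6 exon (chr1:170834715-170835214) from 4.15 and 3.70 to 1.74 and 2.41 (-1.85), and the Fcrlb exon (chr1:170907833-170908332) from 3.68 and 3.72 to 1.52 and 2.35 (-1.77). All 6 were at or above 3.14 in both C57BL/6 libraries and at or below 2.41 in both Hivep3-/- libraries. The Atf6 start site was not among them, at 4.71 and 4.43 against 4.63 and 4.24. The other 2 Fcrlb regions differed by 0.06 and 0.32, and the 7 Fcgr3 regions by -0.17 to 0.28. Leaving out 1 library took 3 of the 6 under the 3-fold threshold: the Fcgr2b region at -1.58 without C57BL/6 replicate 1, and the Atf6 and Fcrlb exons at -1.51 and -1.35 without Hivep3-/- replicate 1. Over all 27 members the median difference was -0.28, against 0.0034 over all regions. Nothing is read from this median, since the contrast picked the locus.

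The upstream and intron regions of Fcgr2b also had lower values in Hivep3-/- iNKT2 cells. Neither reached the accessible level in iNKT2 cells of either genotype. The upstream difference was -2.63, with 1 Hivep3-/- library at its lowest value. No fold is given for the intron, where both Hivep3-/- libraries lay at their lowest value. Of 90 other regions above the filter within 1 Mb of the member genes, 3 passed both thresholds and were lower (1.2% of all regions). The largest change was -3.11 at chr1:170622917-170623416 on the far side of Olfml2b (group means of 3.59 and 0.48). B cells and myeloid cells are among the cells known for Fc receptor genes, and their markers were therefore read at their promoters. Of 9 B cell markers 4 had a region there, with summed linear levels in iNKT2 cells of 41.2 and 43.2 (C57BL/6) and 39.2 and 40 (Hivep3-/-), and Cd79a, Cd79b, Ms4a1, Cd22 and Vpreb3 had none. Of 10 myeloid markers 2 had one (Spi1 and Cebpa), with sums of 44.7 and 51.3 against 35.1 and 38.2. These were lower in Hivep3-/- cells, and their part in the result was not tested. Of 5 mast cell markers Hdc had one, at 33.7 and 31.4 against 38.6 and 38.3.

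**Figure D3:**
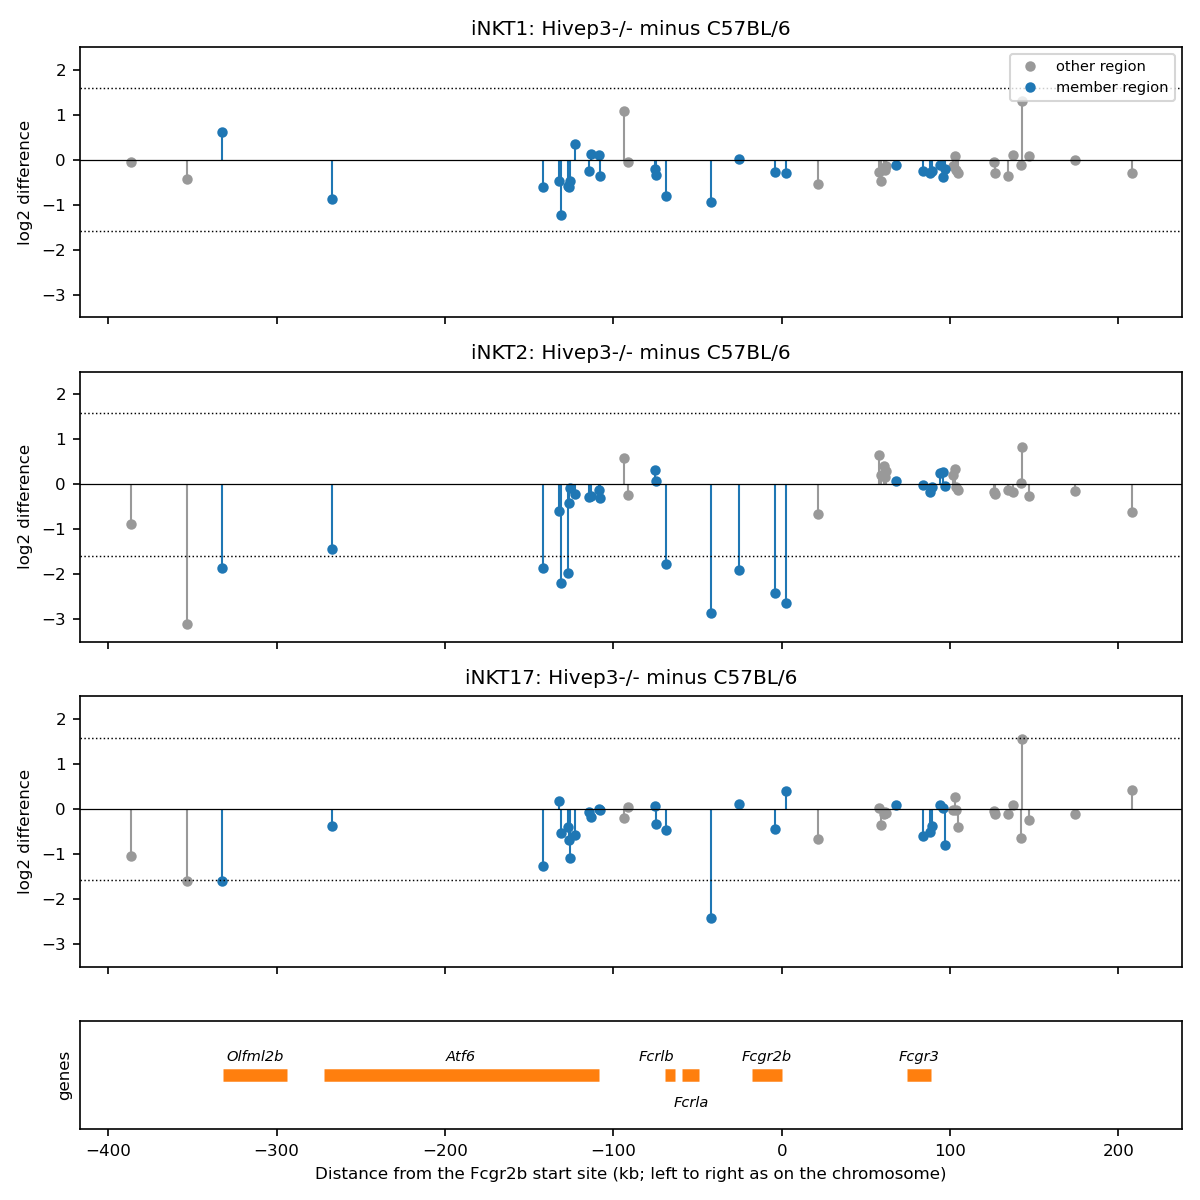
Log2 difference between Hivep3-/- and C57BL/6 cells (y axis) by distance from the start site of Fcgr2b in kb (x axis) in iNKT1, iNKT2 and iNKT17 cells, with member regions in blue, other regions in grey, dotted lines at 3-fold and the genes drawn below to scale. In iNKT2 cells 6 members accessible in a genotype lie below the lower line, from Olfml2b to Fcgr2b, while the Fcgr3 regions lie between -0.17 and 0.28. In iNKT17 cells the regions upstream of Fcrla (-2.43) and at the start of Olfml2b (-1.59) lie below the line, both below the accessible level.

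In iNKT1 cells, which were not used to pick the locus, no member was called between genotypes by limma (0 of 21 tested, against 1.15% of all regions). At an unadjusted p under 0.05 there were 2 (17.8% of all regions), both exons of Atf6 (chr1:170709480-170709979 at -0.87 ± 0.29, limma, adjusted p = 0.107; chr1:170834715-170835214 at -0.61 ± 0.27, adjusted p = 0.249). Both Hivep3-/- libraries read below both C57BL/6 libraries at 15 of 27 members (28.3% of all regions) and above them at 1 (25.2%). The median difference was -0.30, against -0.02 over all regions. At the start site of Atf6 the difference was 0.10 ± 0.18. Fcgr3 differed by -0.40 to -0.12 at its 7 regions. The summed level of the myeloid markers was 42.4 and 51.2 in C57BL/6 and 55.6 and 53.3 in Hivep3-/- iNKT1 cells.

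In iNKT17 cells no member was called either (0 of 22 tested by limma, against 0.271% of all regions), with 5 at an unadjusted p under 0.05 (15.8%). Of these, 3 passed the adjusted threshold without reaching 3-fold (4.65%). The Atf6 exon chr1:170834715-170835214 read 3.62 and 3.55 in wildtype against 2.13 and 2.50 in knockout cells, a difference of -1.27 ± 0.27 (limma, adjusted p = 0.0282). The Fcgr3 intron differed by -0.59 ± 0.14 (limma, adjusted p = 0.0522), and the Fcgr3 start site in repeated sequence stood at -0.52 ± 0.15 (limma, adjusted p = 0.0854). Both Hivep3-/- libraries were the lower at 11 members (22.3% of all regions) and the higher at 1 (21.8%). The median was -0.38, against -0.01 over all regions. The myeloid markers Spi1 and Cebpa summed to 43.8 and 46.9 in C57BL/6 and 33.1 and 38.6 in Hivep3-/- iNKT17 cells. The lower sum came from Cebpa (linear means of 27.3 in C57BL/6 and 16.9 in Hivep3-/- cells), while Spi1 was not lower (18.1 and 19). Their part in these differences was not tested.

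The region upstream of Fcrla and the start site of Olfml2b were below the accessible level in iNKT17 cells and entered no test there. Both differed by over 3-fold, the former with 1 library at its lowest value. Tested without the filter both were called, at -2.43 ± 0.54 for Fcrla and -1.59 ± 0.30 for Olfml2b (limma, adjusted p = 0.0336 and 0.0177), which made 2 calls in place of 0. The share of all regions called without the filter is not given, so nothing is read from this count.

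Of the 6 regions that passed both thresholds in iNKT2 cells, the fitted change was below 0 for 4 in iNKT1 and for 5 in iNKT17 cells. Over all 63309 regions it was below 0 at 33963 and 32610. Of the 6, 4 entered the test in iNKT1 and 3 in iNKT17 cells. They were picked on the iNKT2 values, and nothing is read from these counts. The iNKT1 changes ranged from -1.23 to 0.61 with a median of -0.71, and the iNKT17 changes from -2.43 to 0.12 with a median of -0.90. The Atf6 intron chr1:170845178-170845677 went from 1.87 and 1.86 to 0.49 and 0.76 in iNKT1 cells (-1.23 ± 0.31), all of it under the accessible level. The region downstream of Fcgr2b differed by 0.0086 and 0.12 in the 2 subsets. In each of the 3 subsets, both Hivep3-/- libraries read below both C57BL/6 libraries at 5 members, namely the Atf6 exon chr1:170834715-170835214, 2 Atf6 introns (chr1:170845178-170845677 and chr1:170849344-170849843), the region upstream of Fcrla and the Fcgr3 start site. Over all regions 3.48% had this pattern, and nothing is read from the count, since it includes the iNKT2 libraries by which the locus was picked.

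The genotype difference was then compared between iNKT1 and iNKT17 cells. Of 26 members tested, limma called none for this interaction (against 1.42% of all regions), and none had an unadjusted p under 0.05 (14.2%). Among the larger values were the region upstream of Fcrla at 1.49 ± 0.77 (limma, adjusted p = 0.414) and the Atf6 intron chr1:170853523-170854022 at 0.93 ± 0.45 (limma, adjusted p = 0.383). The standard errors over the members tested ran from 0.12 to 1.16.

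**Figure D4:**
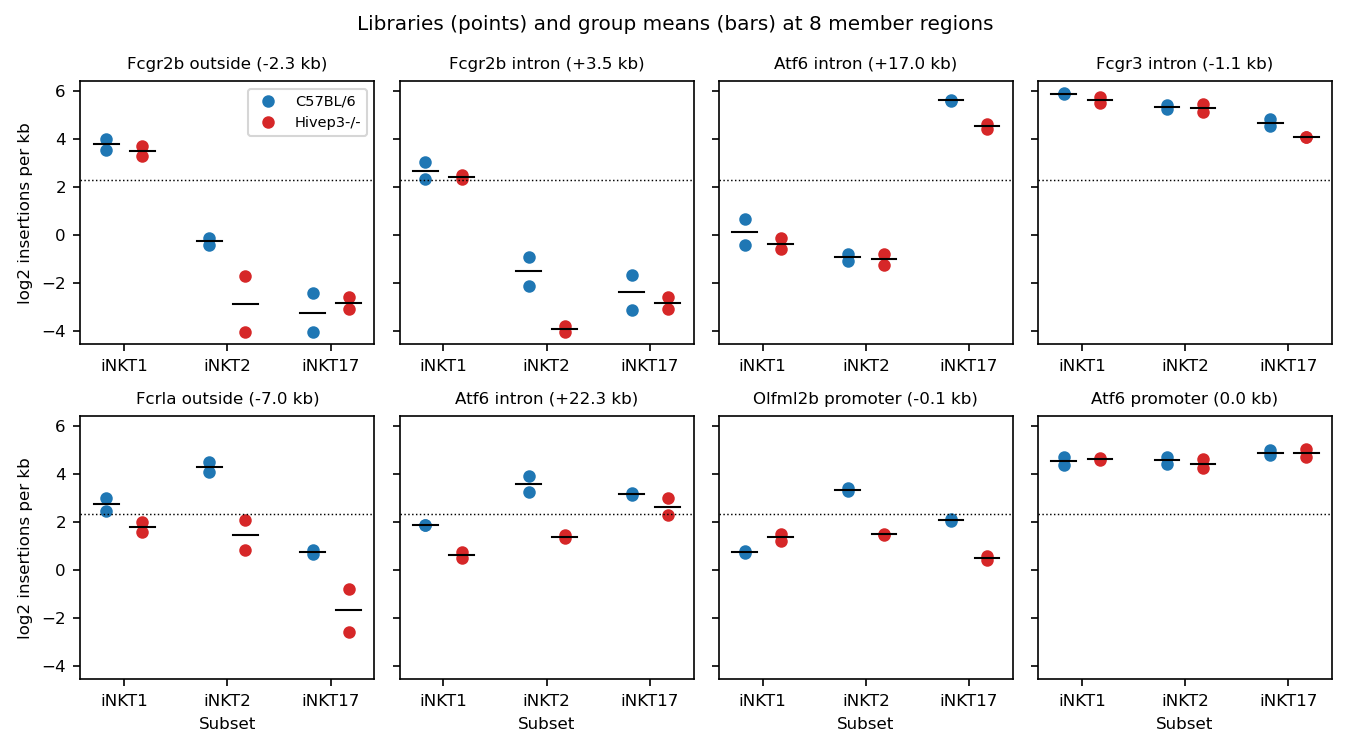
Log2 insertions per kb (y axis) in each library (points) and group mean (bars) at 8 member regions for iNKT1, iNKT2 and iNKT17 cells (x axis) of C57BL/6 (blue) and Hivep3-/- (red) mice, with the accessible level dotted. The upstream and intron regions of Fcgr2b cross the level in iNKT1 cells alone, the Atf6 intron at 17.0 kb crosses it in iNKT17 cells alone (4.43 to 5.64), and the start site of Atf6 stays at 4.24 to 5.03 throughout.

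Other genes of Fc receptors and their relatives were read in the same way. Of 13 such genes, with Fcer1g among them, 11 had a region within 10 kb, 35 in all, and 11 of these regions lay within 1 Mb of the members, those of Fcer1g and Fcgr4. In C57BL/6 mice 8 of 34 tested were higher (9.72% of all regions) and 2 lower (10.8%) in iNKT1 than in iNKT17 cells, and in Hivep3-/- mice 7 (9.48%) and 1 (9.83%). Outside that 1 Mb there were 5 higher and 2 lower of 23 tested in C57BL/6, and 4 and 1 in Hivep3-/- mice. Over all 35 regions of the list, those within 1 Mb included, the median difference was 0.24 in C57BL/6 and 0.05 in Hivep3-/- mice. The summed myeloid markers stood at 42.4 to 55.6 in the iNKT1 and 33.1 to 46.9 in the iNKT17 libraries. Within this sum Spi1 was higher in iNKT1 cells (linear means of 36.9 against 18.1 in C57BL/6 mice) and Cebpa was lower (9.84 against 27.3). The B cell markers summed to 20.3 to 26.6 in the iNKT1 and 90.6 to 95.3 in the iNKT17 libraries, where Blk led. The part of these markers in the differences was not tested. Fcer1g, whose product is the signalling chain of FcγRIII, had 3 regions called in both genotypes, at 2.51 ± 0.26, 2.63 ± 0.54 and 6.12 ± 0.82 in C57BL/6 mice (limma, adjusted p = 2.3e-06, 0.000949 and 2.6e-05), and all 3 also lie within 10 kb of Apoa2. Fcgrt, which encodes the neonatal Fc receptor, had 2 at 5.22 and 4.93, Fcrl6 had 1 at 5.57 and Fcrls had 2 at 1.91 and 4.96. Where the difference was 4.93 to 6.12, the C57BL/6 iNKT17 means were -2.46 to -0.11 on the log2 scale. The size of these differences thus rests in part on low values. The regions lower in iNKT1 cells belonged to Fcrl1 (-2.03) and to Pigr (-1.94), which encodes the polymeric immunoglobulin receptor. Between genotypes limma called none of the 32 tested in iNKT1 (1.15% of all regions) and none of the 27 in iNKT17 cells (0.271%). At an unadjusted p under 0.05 there were 5 and 3 (17.8% and 15.8% of all regions).

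Among 18 genes that signal downstream of Fc receptors, 17 had regions, 159 in all. Between iNKT1 and iNKT17 cells 12 were higher and 18 lower in C57BL/6 mice, of 147 tested (over all regions 20.5% were called), and 13 and 13 in Hivep3-/- mice, of 152 tested (19.3%). These shares are near those of all regions and are no result about these genes. At Inpp5d, which encodes the phosphatase SHIP1 recruited by FcγRIIB, the called region in C57BL/6 mice was lower in iNKT1 cells (-2.19 ± 0.19). At Ptpn6, which encodes SHP-1, it was higher (1.98 ± 0.19), and at Ptpn11 the called regions were lower (-2.98 and -4.06). These are single values from the list and no result about phosphatases. Between genotypes 3 of 139 tested rose in Hivep3-/- iNKT1 cells (1.15% of all regions were called), all at Plcg2 and by 1.67 to 1.76 on the log2 scale, and 1 of 141 rose in Hivep3-/- iNKT17 cells (0.271%), at Zap70 and by 1.88. Plcg2 encodes a phospholipase of immune receptor signalling and Zap70 a kinase of the T cell receptor.

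Among 18 genes of the unfolded protein response, all with regions, 101 in all, 7 of 99 tested were higher and 2 lower in iNKT1 than in iNKT17 cells of C57BL/6 mice (20.5% of all regions were called), and 6 of 98 were higher and 4 lower in Hivep3-/- mice (19.3%). The calls were thus fewer than over all regions. Mbtps1, the site 1 protease that cleaves ATF6, supplied 3 of the 7, at 2.21 to 4.15. Between genotypes 2 regions of Dnajc3, which encodes a co-chaperone of the endoplasmic reticulum, fell in Hivep3-/- iNKT1 cells, by 2.12 and 1.81. These were 2 of 96 tested (1.15% of all regions were called). In iNKT17 cells limma called none of 94 (0.271%), and 19 had an unadjusted p under 0.05 (15.8% of all regions).

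Within 1 Mb of the member genes lay 113 other regions. Between iNKT1 and iNKT17 cells 26 of 105 tested were higher (9.72% of all regions) and 3 lower (10.8%) in C57BL/6 mice, and 23 of 111 were higher (9.48%) and 3 lower (9.83%) in Hivep3-/- mice. The regions of Fcer1g and Fcgr4 are counted among these too. Between genotypes limma called 1 of 106 in iNKT1 cells (1.15% of all regions), higher in Hivep3-/- mice. In iNKT17 cells limma called none of 83 (0.271%), and 12 had an unadjusted p under 0.05 (15.8%). Of 15 named neighbour genes 14 had regions, 29 in all and 2 of them members too. Of 28 tested in C57BL/6 mice, 1 was higher (9.72% of all regions) and 2 lower (10.8%) in iNKT1 than in iNKT17 cells. Of 29 tested in Hivep3-/- mice, 2 were higher (9.48%) and 1 lower (9.83%). Between genotypes limma called none of 27 in iNKT1 (1.15%) and none of 27 in iNKT17 cells (0.271%). At an unadjusted p under 0.05 there were 3 in iNKT1 (17.8%) and 3 in iNKT17 cells (15.8%).

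The genes over 1 Mb away whose mean level followed a member gene most closely over the 12 libraries, of 9990 searched, were Haspin (Pearson r = 0.995), Ppil2 (0.99) and Atp5o (0.987) for Fcgr2b. For Fcgr3 they were Pgap3, Slc5a11 and Rpap2 (0.985, 0.976 and 0.973), for Atf6 Acsl4 and Hbegf were among them (0.985 and 0.982), and for Fcrlb Srsf1, Ubl7 and Bbs1 (0.95, 0.922 and 0.833). The points share libraries and normalization and fall by subset, so these values are a description. Olfml2b and Fcrla had too few regions for the search.

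Of the motifs searched on both strands of the 500 bp regions, the NFAT motif TGGAAA occurred in 11 of 27 members (40.7%, against 33.7% of all regions), the Runt motif TGTGGTT in 5 (18.5% against 17.4%) and the GATA motif AGATAAG in 5 (18.5% against 6.19%). The AP-1 motif TGANTCA, the PU.1 type GAGGAAGT, the T-box motif AGGTGTGA, the TCF motif CTTTGAT and the CTCF core AGGGGGC were each present in 2 members (7.41%, against 15.9%, 6.45%, 2.91%, 7.99% and 12.8%). The ETS core CCGGAAGT, the NF-kB motif GGGANTTTC and the ATF6 and XBP1 type TGACGTGG were in none of these windows. Of the 6 regions past both thresholds in iNKT2 cells, 2 held the NFAT, 2 the GATA, 1 the Runt motif and 1 the CTCF core, and 2 held none of those searched.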

How the data were processed

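Omni-ATAC-seq libraries from sorted thymic iNKT1, iNKT2 and iNKT17 cells of C57BL/6 and Hivep3-/- mice were used, 2 per group. The authors trimmed reads to 50 bp (Trimmomatic 0.39 per the labels), aligned them to mm10 with an ATAC-seq pipeline, counted insertions in merged regions of 500 bp, left out the Y chromosome and blacklisted regions, and normalized with voom. The deposited values are log2 insertions per kb. How reads that align to several places were treated is not given in the sources used here, nor is the depth per library, so no counting interval is given. Every column was mapped to a sample.

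Regions were assigned to genes with GENCODE vM21. limma 3.58.1 (R 4.3.3) was fitted to all 12 libraries with 1 mean per group and variances moderated along a mean trend, which gave 7.17 prior beside 6 residual degrees of freedom. A region entered a test when 1 of the groups compared (4 for the interaction) had a linear mean of 5 or more. Benjamini-Hochberg adjustment ran over everything tested, and calls needed 3-fold and an adjusted p under 0.1. The fit was tested on simulated data. The titles number the libraries of a group as Mouse1 and Mouse2, whereas the protocol and the methods speak of pooled thymi, so the number of animals behind a library is not settled here and p-values measure the spread between these libraries, which may be technical. Libraries with the same number and genotype were read as 1 pool of thymi, and their deviations from the group means correlated at 0.12 to 0.168 between subsets. Libraries with the same number but another genotype and subset correlated at 0.0912 to 0.174, so these values cannot show whether a pool was shared. Regions named are the one nearest a start site within 1000 bp, those called (up to 5 a direction), those past both thresholds in iNKT2 cells, and those beside the threshold, with others named where the text says why. The members, gene lists, markers and motifs were chosen with earlier results of these data known. Sequences came from RefSeq GRCm38.p6, and of the 6 genes 5 matched the promoter table. Some genes of the lists and some sequences are not reported here.

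Alternatives were the filter, pseudocounts of 1 and 5, renewed quantile normalization, median centring, no variance trend, no iNKT2 libraries, the replicate number or pool as a block, other fold thresholds and flanks, and each library left out. The count without regions in repeated sequence was added after seeing the data.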

Additional observations from a re-analysis of the deposited data

Results flagged for a closer look

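At the start site of Olfml2b the fitted log2 difference between Hivep3-/- and C57BL/6 mice was 0.61 ± 0.30 for iNKT1, -1.85 for iNKT2 and -1.59 for iNKT17. The iNKT1 difference did not pass the test without the filter (limma, adjusted p = 0.308), so a rise there is not established. The genotypes did not overlap in any subset. Over all regions both Hivep3-/- libraries lay above both C57BL/6 libraries at 25.2% in iNKT1, and below them at 25.6% in iNKT2 and 22.3% in iNKT17 cells. Between iNKT1 and iNKT17 cells the difference of 2.20 ± 0.43 was called once the accessibility filter was dropped (limma, adjusted p = 0.0215), while the region was below the accessible level in these 4 groups. The difference involving iNKT2 cells was not tested, since that subset chose the locus.

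The region upstream of Fcgr3 at chr1:171072193-171072692 differed by -0.40 ± 0.19 in iNKT1 cells, which did not pass the test (limma, adjusted p = 0.298), and by 0.28 in iNKT2 cells. The genotypes did not overlap in either, as at 28.3% of all regions in the iNKT1 and 27.2% in the iNKT2 direction. The difference between these subsets was not tested either, and the region lies in repeated sequence.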

How the results depend on the processing

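No member was called between genotypes in iNKT1 cells under any alternative. In iNKT17 cells the count of 0 became 2 with no filter, 1 with a filter on the mean over all libraries, 1 at 2-fold and 3 at any fold (4.65% of all regions). Between iNKT1 and iNKT17 cells the 10 calls in C57BL/6 mice became 6 with the filter over all libraries, 3 with a pseudocount of 5 and 16 at 2-fold. They became 19 of 26 at any fold (58.4% of all regions) and 6 with gene bodies alone. The 11 in Hivep3-/- mice became 2 with the pseudocount of 5 and 17 of 24 at any fold (56.9%). For the changed filters, pseudocounts and 2-fold threshold the share over all regions is not given, so nothing is read from those counts. The pseudocount shrinks differences of low values by construction. Leaving out 1 library gave 10 to 11 calls in C57BL/6 and 8 to 12 in Hivep3-/- mice, 0 to 1 for the interaction (1 without Hivep3-/- iNKT17 replicate 1; the cause was not tested) and 4 to 6 in iNKT2 cells. The interaction count was 1 with no filter, and the 6 regions in iNKT2 cells became 1 with the pseudocount of 5. With the replicate number as a block, which genotypes share as a number alone (correlations of deviations of 0.171, 0.145 and 0.113 in iNKT1, iNKT2 and iNKT17), or with the pool as a block, the counts of 0, 6, 0, 10, 11 and 0 did not change. The genotype difference at the Atf6 start site changed sign when 1 library was left out, running from -0.078 to 0.27 for iNKT1 (negative without C57BL/6 replicate 2), from -0.33 to 0.063 for iNKT2 and from -0.16 to 0.14 for iNKT17. It was positive without C57BL/6 replicate 1 or Hivep3-/- replicate 2 in iNKT2 (0.011 and 0.063) and in iNKT17 cells (0.094 and 0.14). In all, 485 of 536 values of single regions kept direction and side of the threshold, 42 fell short of it or left the test, 4 passed it and 5 changed sign. Without the 5 Fcgr3 regions in repeated sequence, an alternative chosen after seeing the data, 8 and 8 calls stood in C57BL/6 and Hivep3-/- mice. With 2 libraries per group and unknown depth, values near the lowest of a library are the least certain.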
